A study of Drosophila melanogaster with 2 samples.

Results

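The genes described here encode voltage-gated and sensory ion channels of the fruit fly (Drosophila melanogaster) and the proteins that assemble with them. They are a list of 47 named genes, found in the tables through the RefSeq accessions of each gene, with reads summed per gene. Of the 47, 45 had at least 1 accession in the tables and 31 had at least 50 reads over both libraries, the minimum for a gene to count as measured. In the whole series 7822 of 11256 genes were measured, with each of 569 unmatched accessions counted as a gene of its own.

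Poly(A) RNA came from heads of adult Canton-S females, a wild-type laboratory strain, aged 3 to 5 days. The ethanol group breathed ethanol vapour for 15 min, until the flies were sedated, and ethanol-free air for the next 30 min. Control flies spent 45 min in ethanol-free air. About 180 flies were pooled per group for 1 library. The ratios below therefore have no replicate check and no p-value.

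Ion channels are membrane proteins that let ions cross when a voltage, a ligand, heat or a mechanical force opens them. In neurons, sodium and calcium channels carry the depolarising currents of the action potential and of transmitter release, and potassium channels end them and set the resting state. Channels of the transient receptor potential (TRP) family and Piezo turn heat, irritants, humidity, sound and touch into such currents. The potassium channel gene slo has long been studied in flies for its part in tolerance to alcohol and other sedatives.

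Reads on accessions matched to a gene, 99.4% of each library, numbered 11692706 in the control and 10963982 after ethanol. The RNA integrity number, a measure of intact RNA, was 6.80 and 6.40 in that order. Photoreceptor genes marked both libraries as heads, with the rhodopsin gene ninaE at 546212 control and 452455 ethanol reads. Of the other photoreceptor markers, ninaC, trp and chp each had at least 13734 reads in both libraries, and norpA had 36 and 34. The neuronal genes nSyb (379 and 353 reads) and elav (66 and 48) were present, brp had 3 and 2 reads, and the ovary gene vas had 6 and 2 reads. The 6 measured of 8 neuron markers had a median log2 ratio of -0.36, with 2 of 6 intervals below a ratio of 1. Every ratio here is ethanol over control, after division of each library by its total. The summed level of the neuron markers was 37.4 RPKM (reads scaled to transcript length and library total) in control heads and 33.8 after ethanol. The median log2 ratio was 0.049 for the 4 measured glia markers (2 intervals above 1 and 1 below), -0.10 for the 5 of photoreceptors (4 below), -0.44 for the 5 of muscle (1 above and 2 below), -0.055 for the 5 of fat body (5 below) and -0.31 for the 3 of hemocytes (2 below). The part of these levels in the channel ratios was not tested, and in whole heads fewer cells of a type and less RNA per cell cannot be told apart.

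The channel genes together took 12855 control and 10945 ethanol reads, or 0.109% and 0.0993% of each library. The gene qvr alone had 5097 and 4186 of them. The median level of the 31 measured channel genes was 2.81 RPKM in control heads and 2.62 after ethanol, against 12.0 and 12.5 over all measured genes. By this measure the channel genes as a list lay low in the range of these libraries. The 10 covered by reads over at least 80% of the transcript in both libraries had a median of 13.7 RPKM (mean of both libraries). The other 21, counted on a smaller part but divided by the whole length, had 2.21. The part of this counting in the low median was not tested.

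Among the channels with the highest levels were several that hold the resting state or sit beside the pore. The GPI-anchored protein gene qvr (quiver, also called sleepless), whose product raises the activity of the Shaker potassium channel, was at 86.1 RPKM in control heads and 75.4 after ethanol. The inward rectifier gene Irk2 followed at 35.7 and 30.4 RPKM. The chloride transporter gene ClC-b (20.7 and 21.9), the heat-nociception channel gene pain (19.2 and 19.8), the calcium channel alpha2-delta subunit gene stj (18.4 and 16.8) and the 2-pore potassium channel gene Task7 (15.8 and 17.8) came next. From ClC-b to Task7, no gene stood apart from its neighbour in both libraries by the exact 95% Poisson intervals of the reads. qvr and Irk2 each stood above the next gene in both libraries, as did Task7 above unc80 and unc80 above Hk. Below Hk, itself at 8.68 and 7.80 RPKM, no neighbours in the order were apart in both libraries. The last in the order of mean level were slo (0.529 and 0.452 RPKM) and the calcium channel gene Ca-alpha1D (0.276 and 0.374). Both were counted on a small part of the transcript but divided by its whole length, and the order was not corrected for this.

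**Figure D1:**
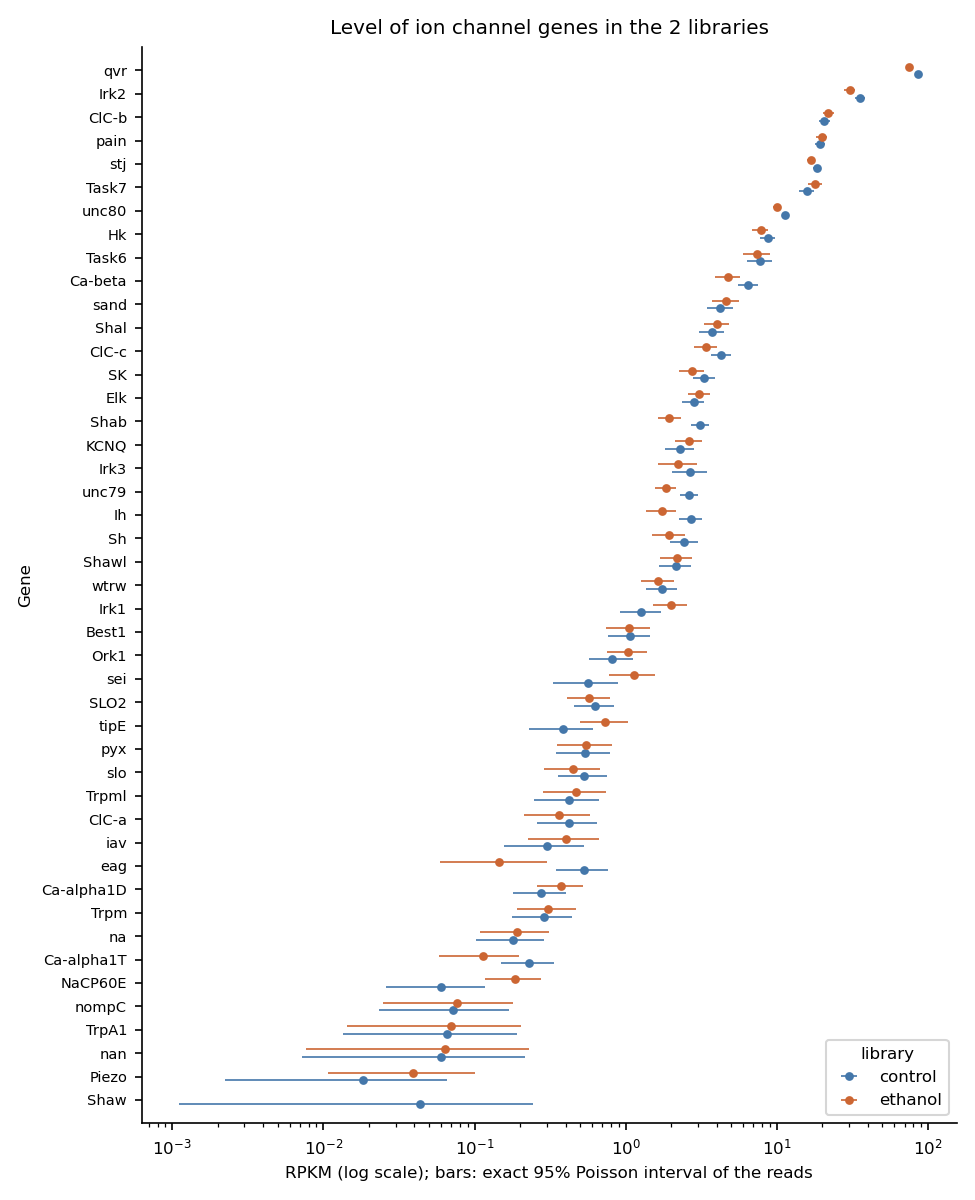
Level of each of the 45 channel genes with an accession, in RPKM on a log axis, control in blue and ethanol in orange, with exact 95% Poisson intervals of the reads (a gene with 0 reads in a library has no point there). qvr stood highest at 86.1 and 75.4 RPKM, and the control and ethanol points of most genes lay close together.

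The other 14 genes with an accession had fewer than 50 reads over both libraries, and 8 of them belong to the 10 TRP and mechanosensory genes. The hearing channel genes of the chordotonal organs were among these: iav had 12 and 15 reads, nan 2 and 2, and nompC, which also serves touch, 5 and 5. The heat and irritant channel gene TrpA1 had 3 and 3 reads, the heat channel gene pyx 25 and 24, and Piezo 2 and 4. Trpm, which encodes a cation channel permeable to divalent ions, had 21 and 21 reads and the lysosomal channel gene Trpml 18 and 19. At such counts no difference was detectable at this depth. In the same class, the measured members were pain and wtrw, a channel gene of moist-air sensing (76 and 67 reads).

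Outside the sensory class, the genes under 50 reads were Shaw (1 and 0 reads), eag (27 and 7), NaCP60E (8 and 23), Ca-alpha1T (26 and 12), na (16 and 16) and ClC-a (21 and 17). They encode 2 voltage-gated potassium channels, a sodium-channel relative, a T-type calcium channel, the sodium leak channel and a chloride channel. The intervals of eag (log2 ratio -1.85, -3.30 to -0.62) and NaCP60E (1.62, 0.41 to 2.99) excluded 0 in opposite directions. With counts divided by 2, the interval of eag still did (-4.09 to -0.096), and that of NaCP60E did not (-0.12 to 3.71). Both would meet the 2-fold rule below if the minimum were 20 reads. The exons of NaCP60E overlap those of pain on the opposite strand, and the strand setting of the counting is unknown here, so reads of the 2 genes cannot be told apart where they overlap. For para, which encodes the voltage-gated sodium channel of fly action potentials, and cac, the presynaptic calcium channel gene, no row matched, and neither was analysed here.

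How the reads fell along each transcript sets how these levels can be read. An accession with 1 read was covered over a median of 100 nt in either library, which gives the length of a read. Irk2 (NM_142892) had 706 control reads on 1894 nt, a mean depth of 37.3, yet reads covered only 48.7% of it. ClC-c (NM_168650) had 176 reads covering 17.4% of 3718 nt, and Ih (NM_001038856) 107 reads covering 15.5% of 4572 nt. By contrast, Elk (NM_057661), the sole accession of its gene in the tables, had 140 reads covering 90.1% of 4228 nt. Channels with several accessions were thus counted on a part of the transcript, and channels with a single well-read accession on nearly the whole of it.

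The same split held over the whole table. Among accessions with a mean depth of at least 5 in the control library, the median coverage was 96.8% for the 4860 accessions that were alone for their gene and 34.9% for the 1121 accessions of genes with 2 or more. In the ethanol library it was 97.1% and 36.2%. The 95 channel accessions in the tables stand against 339 annotated transcripts of the 47 genes. slo was counted on 7 accessions of 23 annotated transcripts, with 30 and 24 reads in all, and its most-read accession (NM_001014658, 12 and 6 reads) was covered over 298 nt of 4711 in the control. The levels of such genes rest on the counted part, divided by the whole length. The 10 measured channel genes covered over at least 80% in both libraries had a median level of 13.7 RPKM (mean of both libraries), and the other 21 had 2.21.

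**Figure D2:**
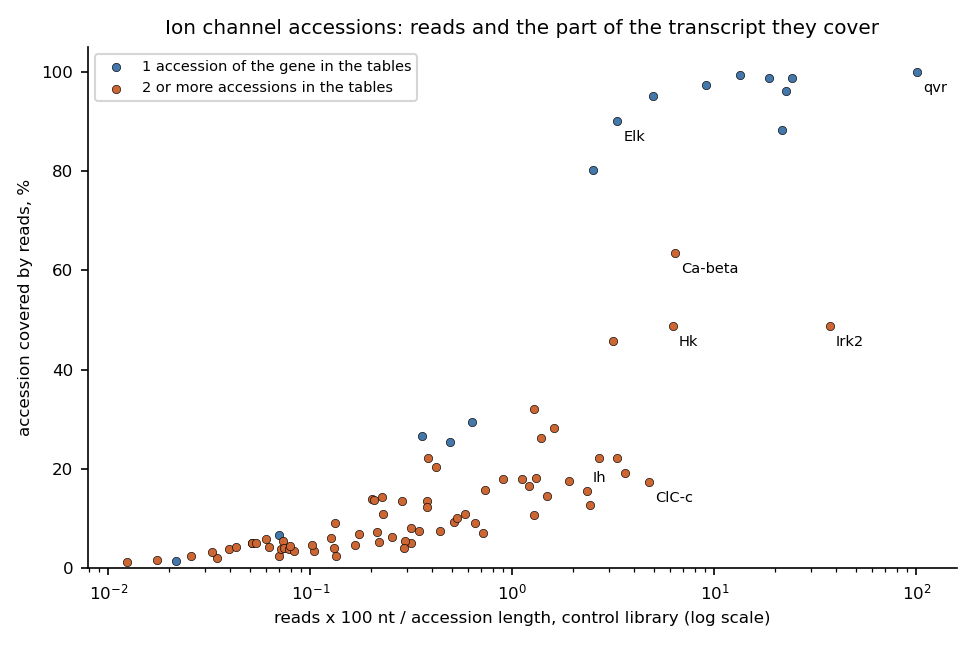
Percent of each channel accession covered by reads in the control library, against reads times 100 nt divided by accession length (log axis). Accessions alone for their gene (blue) reached 80.2% or more at depths above 1, whereas accessions of genes with several in the tables (orange) stayed at or below 63.4%, Irk2 at a depth of 37.3 among them.

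Ethanol and control levels of the channel genes differed little. Of the 31 measured, 26 (83.9%) lay within 1.5-fold, against 90.2% of all measured genes. A gene was called higher or lower when it was at least 2-fold changed and the exact (Clopper-Pearson) 95% interval of its ratio excluded 1. By that rule 1 of the 31 was higher, where 1.75% of all measured genes were, and 0 were lower, against 0.741%. At 1.5-fold 3 were higher (sei, tipE and Irk1), against 5.97%, and 2 were lower (Shab and Ih), against 2.86%. The median log2 ratio of the 31 was -0.089, against 0.049 over all measured genes, and 18 of 31 (58.1%) were below 0, against 43.0%.

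By the interval alone, with no minimum fold, 3 of 31 were above 1, where 23.9% of all measured genes were, and 9 of 31 were below 1, against 15.0%. The channel genes had fewer reads, a median of 212 against 530. Over all genes with 50 to 100 reads, 15.4% were above 1 and 7.45% below, and with 500 or more, 28.8% and 20.4%. The shares over the whole series, here and below, are thus not matched for read number. The intervals treat every read as a separate event. In both libraries the accessions with 1 to 20 reads held mostly even counts, 69.3% of them in the control and 68.2% after ethanol. Accessions with 2 reads (1236 in the control) outnumbered those with 1 (394) or 3 (222), which is how counts look when both reads of a pair are counted. Intervals were therefore also computed from counts divided by 2, a step chosen after these counts were seen, and are called pair intervals. Of the 31 pair intervals, 0 lay above 1, where 15.0% of all measured genes did, and 6 lay below, against 9.43%. The 6 were Shab, Irk2, qvr, Ih, unc79 and unc80.

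**Figure D3:**
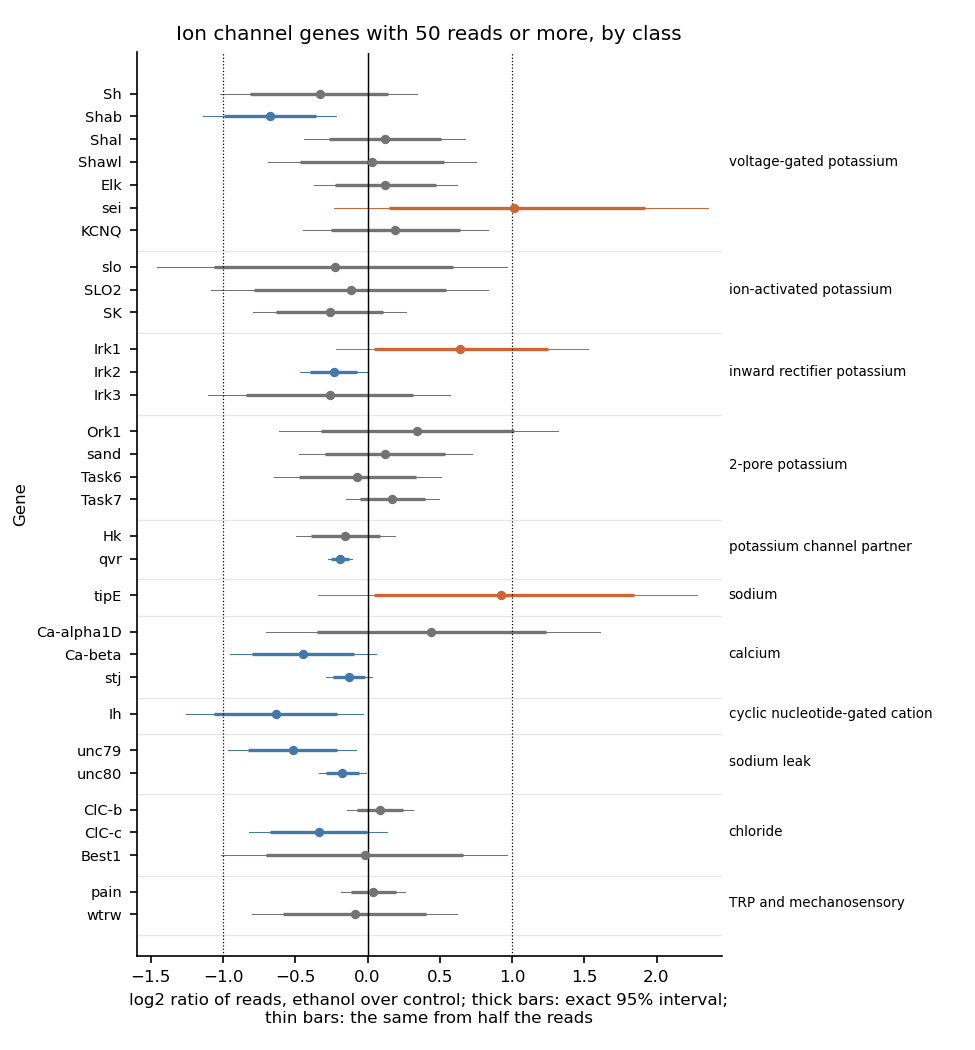
Log2 ratio of ethanol over control reads for the 31 measured channel genes, grouped by class, with the exact 95% interval (thick bars, blue where it lies below 0 and orange where above) and the pair interval (thin bars). Dotted lines mark 2-fold, which sei alone reached, and the thin bars of sei, Irk1 and tipE cross 0.

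Voltage-gated potassium channels, which repolarise neurons, had 7 of 9 listed members measured and a median log2 ratio of 0.12. Shab, the delayed rectifier gene, had 223 control and 131 ethanol reads. Its log2 ratio was -0.67 (interval -1.0 to -0.36, pair interval -1.14 to -0.22), the lowest of all measured channel genes. Most of this came from 1 accession (NM_001104015, 169 and 94 reads), while NM_001202110 had 22 and 20 (-0.99 to 0.90).

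sei (seizure), the fly member of the ERG potassium channel family, was the 1 gene past the 2-fold rule. It had 18 control and 34 ethanol reads, 2.01-fold (interval 1.11 to 3.79). The most-read transcript of sei had 18 and 30 reads (log2 ratio 0.83, -0.060 to 1.76), an interval that included 1. Those reads covered 9.08% of it in the control and 9.48% after ethanol. For the gene sum, the pair interval was -0.24 to 2.36 on the log2 scale, where the call was lost. With the 3 other library scalings the fold was 1.93 to 1.98, just under the 2-fold limit. The exons of sei overlap those of gammaSnap1 on the opposite strand, at 500 and 594 reads (0.34 on the log2 scale, 0.17 to 0.52). They also overlap those of ppk29 on the opposite strand, for which no row matched. The part of reads from overlapping genes in the ratio was not tested.

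The other 5 measured voltage-gated potassium channel genes had intervals that included 1. Sh (Shaker), the fast transient channel, had 90 and 67 reads (log2 ratio -0.33, -0.81 to 0.14). Shal, the transient channel of cell bodies and dendrites, had 112 and 114 (0.12, -0.27 to 0.51). Elk, of the ether-a-go-go family, had 140 and 143 (0.12, -0.22 to 0.47). Shawl, a gene of the Kv3 family, had 71 and 68 (0.031, -0.47 to 0.53), and KCNQ, the gene of the M-type channel, 84 and 90 (0.19, -0.25 to 0.64). Apart from Shab and sei, the log2 ratios of this class lay between -0.33 and 0.19.

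Potassium channels opened by intracellular ions had 3 of 3 members measured, all with intervals that included 1. SK, the small-conductance calcium-activated channel gene, had 142 and 111 reads (log2 ratio -0.26, -0.63 to 0.11). The sodium-activated channel gene SLO2 had 44 and 38 (-0.12, -0.78 to 0.54). For slo, the large-conductance calcium-activated channel gene, the interval of the log2 ratio ran from -1.07 to 0.59, and the pair interval from -1.46 to 0.97. On 30 and 24 reads over 7 of 23 annotated transcripts, a 2-fold fall of slo lay inside both intervals and a 2-fold rise outside both. The intervals cover counting error only, with 1 library per group, so they exclude neither change as an effect of the treatment.

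Inward rectifier genes, whose channels stabilise the resting potential, gave 1 interval below 1, 1 above and 1 that included it. Irk2 had 709 control and 565 ethanol reads (log2 ratio -0.23, -0.40 to -0.073), and the upper bound of its pair interval was -0.0048. Irk1 had 41 and 60 reads (0.64, 0.046 to 1.25), and its pair interval was -0.22 to 1.53. The most-read transcript of Irk1 had 41 and 49 reads (0.35, -0.28 to 0.99), an interval that included 1, and another had 0 and 10. The exons of Irk1 overlap those of cnc, a stress-response transcription factor gene on the opposite strand with 446 and 419 reads (0.0031, -0.19 to 0.20). They also overlap those of CG46310 on the same strand, for which no row matched. Irk3 had 60 and 47 reads (-0.26, -0.84 to 0.32).

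The 2-pore potassium channel genes, whose products carry leak currents, were all 4 measured and had intervals that included 1. Task7 had 321 and 339 reads (log2 ratio 0.17, -0.053 to 0.40) and Task6 112 and 100 (-0.070, -0.47 to 0.33). sand (sandman), studied in sleep-control neurons, had 98 and 100 (0.12, -0.29 to 0.54), and Ork1 had 37 and 44 (0.34, -0.32 to 1.01). Among the partners of Shaker, Hk, the beta subunit gene, had 318 and 268 reads (-0.15, -0.39 to 0.085). For qvr the log2 ratio was -0.19 with the narrowest interval of the list (-0.25 to -0.13, pair interval -0.28 to -0.11).

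In the sodium class tipE, an auxiliary subunit gene of the Para channel, was the 1 measured member. It had 18 control and 32 ethanol reads (log2 ratio 0.92, 0.047 to 1.84), 1.90-fold, and its pair interval was -0.34 to 2.28. Its exons overlap on the same strand those of CG18675, which had 2 and 0 reads. Irk1, sei and tipE, the 3 measured channel genes with intervals above 1, all had exons that overlap another gene. The same held for 13 of the 31 measured and 2 of the 9 with intervals below 1. Over all genes the share was 38.8%, and 35.8% of those with intervals above 1.

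Of the calcium channel genes, 3 of 5 were measured. The cytoplasmic beta subunit gene Ca-beta had 167 and 115 reads (log2 ratio -0.45, -0.80 to -0.094), and its pair interval reached 0.057. stj (straightjacket) had 1381 and 1185 reads (-0.13, -0.24 to -0.015, pair interval -0.29 to 0.033). The L-type pore gene Ca-alpha1D had 26 and 33 reads (0.44, -0.35 to 1.24). The pair interval of every measured calcium channel gene included 1.

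Ih, the gene of the hyperpolarisation-activated channel, had 126 control and 76 ethanol reads, with a log2 ratio of -0.64 (-1.07 to -0.21, pair interval -1.26 to -0.033). In the sodium leak complex, which sets resting excitability and daily locomotor rhythms, the genes of both auxiliary subunits had intervals below 1, which neither kept once a trend of the ratios with transcript length was removed (unc79 -0.57 to 0.050, unc80 0.10 to 0.33). unc79 had 223 and 146 reads (-0.52, -0.83 to -0.21, pair interval -0.96 to -0.079) and unc80 had 1367 and 1134 (-0.18, -0.29 to -0.062, pair interval -0.34 to -0.014). The pore gene na, with 16 and 16 reads, gave no detectable difference at this depth.

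Chloride channel genes had 3 of 4 members measured. ClC-b had 632 and 629 reads (log2 ratio 0.086, -0.075 to 0.25), and Best1, a bestrophin, 40 and 37 (-0.019, -0.70 to 0.66). ClC-c had 178 and 132 (-0.34, -0.67 to -0.0053), and its pair interval reached 0.14. Of the sensory genes, pain had 687 and 662 reads (0.040, -0.12 to 0.20) and wtrw an interval from -0.58 to 0.40.

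Single accessions divide the reads of a gene further. Of the 50 channel accessions with at least 20 reads over both libraries, 10 had intervals below 1, where 13.8% of all such accessions did, and 1 had an interval above 1, against 21.0%. The latter belongs to NaCP60E, whose gene sum is under the minimum of 50 reads. For unc79, NM_142538 had 138 and 89 reads (log2 ratio -0.54, -0.94 to -0.14) and NM_001170182 had 60 and 35 (-0.68, -1.33 to -0.060), whereas NM_001170181 had 25 and 22 (-0.091, -0.99 to 0.79). For SLO2, NM_001103789 had 27 and 15 reads (-0.75, -1.77 to 0.21) and NM_001201972 had 13 and 22 (0.85, -0.20 to 1.96), so both intervals included 0 although the ratios pointed in opposite directions. For Shal, NM_079435 had 29 and 39 reads (0.52, -0.21 to 1.27) and NM_001104176 had 83 and 75 (-0.053, -0.52 to 0.42). Whether the accessions of a gene differed from each other was not tested.

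The ratio moved with transcript length over all genes, and the channel transcripts were long, with a median of 3195 nt against 1894.5 nt. Of the 528 measured genes of 5000 nt or longer, 50.9% had an interval below 1 and 3.79% above, with a median log2 ratio of -0.24. Of the 7294 shorter genes, 12.4% were below and 25.4% above, with a median of 0.066. The 7 channel genes of 5000 nt or longer had 5 intervals below 1 and a median of -0.18, and the 24 shorter ones had 4 below, 3 above and a median of 0.0058. By narrower ranges, the channel median was -0.070 against 0.093 from 1000 to 2000 nt (5 channel genes), 0.10 against 0.051 from 2000 to 3000 nt (6) and -0.089 against -0.040 from 3000 to 5000 nt (13). The control RNA had the higher integrity number, and its part in this trend was not tested.

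Among the 10 channel genes counted along nearly the whole transcript, the 3 of 5034 to 10250 nt (qvr, stj and unc80) had intervals below 1, and the 7 of 1227 to 4228 nt (Shawl, Elk, sand, Task6, Task7, ClC-b and pain) had intervals that included it. These 3 were also the most read of the 10, so their intervals were the narrowest, and length and read number cannot be told apart here. With a lowess trend on length removed, the median of the 31 was 0.012, against 0.00007 over all genes, with 4 intervals below, where 17.9% of all genes were, and 4 above, against 17.4%. In each direction 4 of 31 is 12.9%, whose difference from all genes was not tested, and the read numbers were not matched. qvr was then at -0.056 (-0.11 to 0.0036), stj at 0.091 (-0.022 to 0.20) and unc80 at 0.22 (0.10 to 0.33), and unc79 was at -0.26. The 4 below were Shab (-0.47), Irk2 (-0.31), Ca-beta (-0.50) and Ih (-0.58), and the 4 above were sei (0.98), tipE (0.98), Irk1 (0.62) and unc80. With counts divided by 2 as well, Shab (upper bound -0.018) and Irk2 (-0.078) were the 2 with intervals below 0, and unc80 (lower bound 0.054) the 1 above. Over all genes 10.7% were then below and 9.91% above.

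**Figure D4:**
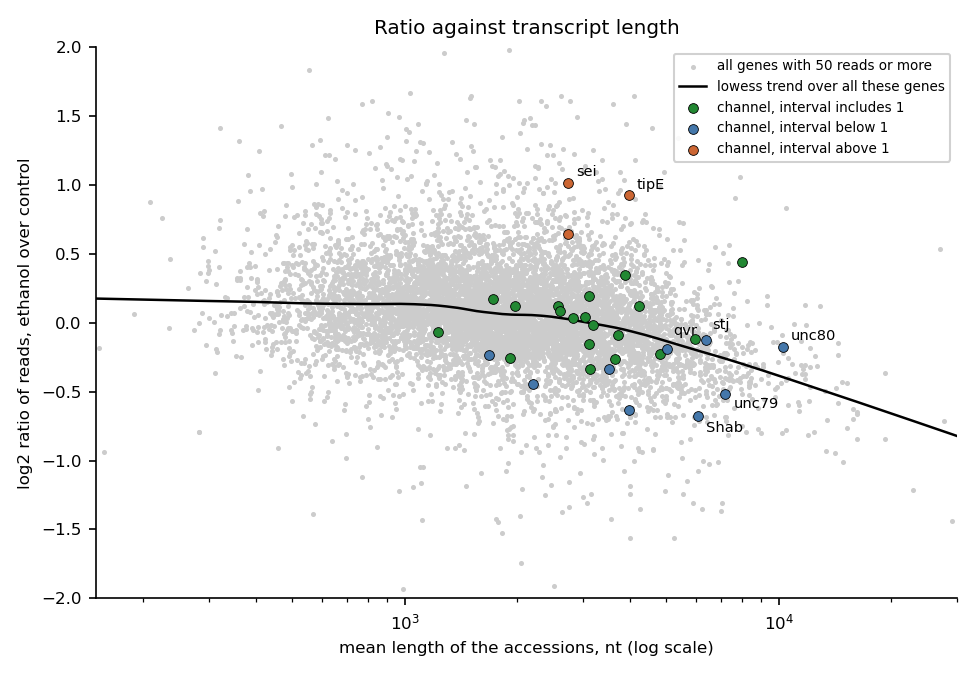
Log2 ratio of ethanol over control reads against mean accession length in nt (log axis) for all measured genes (grey), with their lowess trend (black) and the 31 channel genes coloured by whether the exact 95% interval lies below, above or around 1. The trend falls with length, unc80 at 10250 nt lies above it and Shab at 6102.75 nt below it.

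Other channels and channel partners formed a separate list of 62 genes, of which 34 were measured with a median log2 ratio of -0.059. None of the 34 passed the 2-fold rule in either direction (0 higher and 0 lower). Intervals above 1 numbered 5 (23.9% of all genes) and those below 1 numbered 6 (15.0%), and of the pair intervals 2 were above (15.0%) and 5 below (9.43%). The lowest ratios were those of Cngl, a cyclic nucleotide-gated channel-like gene (672 and 442 reads, -0.51), Axs (39 and 26, -0.49), the alpha2-delta family gene stol (91 and 61, -0.48) and Slob, whose product binds the Slo channel (599 and 404, -0.48). The highest were those of Slip1, the gene of another Slo-binding protein (828 and 1069, 0.46), the nociceptor channel gene ppk (36 and 46, 0.45), the calcium store sensor gene Stim (86 and 104, 0.37) and the photoreceptor channel gene trpl (647 and 781, 0.36). The intervals of Slob (-0.66 to -0.29) and Slip1 (0.33 to 0.59) lay on opposite sides of 0. Those of Axs (-1.27 to 0.26), ppk (-0.21 to 1.12) and Stim (-0.059 to 0.80) included 0. Those of Cngl (-0.69 to -0.34), stol (-0.98 to -0.00021) and trpl (0.21 to 0.52) did not. trp, the main light-activated channel gene, had 34769 and 30607 reads (-0.091), more than all 47 channel genes together.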

How the data were processed

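The authors deposited, per the file headers, 1 row per RefSeq transcript with its read count, length, percent covered by reads, and RPKM value. A deposited table of the authors' own comparison holds a log2 ratio, a p-value and a false discovery rate, here treated as a score because some values exceed 1. Neither of the latter 2 was used, each group being 1 library. The submitters' processing notes name BDGP build 5. Aligner, counter and strand setting are not stated there.

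Of 15090 transcripts, 14521 matched a gene of a Release 6 RefSeq table. As the builds differ, it gave names alone. The other 569 stayed in as single features. Overlapping exons were read from Release 6 gene models. Counts were summed per gene, with a minimum of 50 over both libraries, and ratios carry exact 95% Clopper-Pearson intervals, which cover counting error only. With 0 counts, up to 3 reads remain possible, which is 0.255 RPM of the control and 0.272 RPM of the ethanol library. Gene level is reads per mean transcript length. Every channel gene is accounted for. Of the other channels, the 4 highest and 4 lowest measured ratios are named, and trp was added after its value was seen. Members and lists were chosen with earlier results of these data known. Tools were Python 3.11.15, scipy 1.17.1, statsmodels 0.14.6 and, for TMM (trimmed mean of M-values) factors, edgeR 4.0.16. Planned searches of promoter and protein sequences were not run, since no sequence table was used here.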

Additional observations from a re-analysis of the deposited data

How the results depend on the processing

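No paired analysis was possible because each group is 1 library. The channel median (-0.089) was -0.14 with TMM factors, -0.15 with median-of-ratios size factors, -0.18 with a floor of 200 reads, -0.045 with a floor of 20, 0.033 with no floor, 0.012 with the length trend removed, -0.17 on the accession with the most reads, 0.035 for genes with 1 accession and -0.15 without genes whose exons overlap another gene (added after seeing the data). The median of all genes moved by less than 0.1 under each scaling. The count of genes called higher (1, sei) was 0 with TMM factors, median-of-ratios size factors or totals without the 10 most abundant genes. The same held with a pseudocount of 1 or 0.1 RPKM, the length trend removed, a stricter confidence level or counts divided by 2. A floor of 200 reads, the most-read accession, genes with 1 accession and genes without overlapping exons each left sei out. Their count of 0 therefore says nothing about sei. The count was 2 with floors of 20 reads and 1 read, which add NaCP60E, and 3 at 1.5-fold and by the interval alone. The count called lower (0) was 1 with floors of 20 reads and 1 read (eag), 2 at 1.5-fold (Shab and Ih) and 9 by the interval alone. By the interval alone, 0 were higher and 6 lower with counts divided by 2, 4 and 4 with the length trend removed, and 1 and 2 with both. Over all genes those shares were 15.0% and 9.43%, 17.4% and 17.9%, and 9.91% and 10.7%, and at 1.5-fold 5.97% and 2.86%. With a floor of 20 reads 2.94% of all genes were higher and 1.45% lower. Of single accessions with at least 20 reads, 10 of 50 had intervals below 1 and 1 above, and 2 of 64 were above with at least 10 reads. Of 380 values of single genes over the alternatives, 375 stayed inside the gene's interval, and the 5 others were those of qvr (-0.27 to -0.056), stj (up to 0.091) and unc80 (up to 0.22). Many of the 380 could not move, since another floor, or a choice of genes by accession number or overlap, leaves a gene's ratio unchanged. The 375 are therefore no measure of how stable the ratios are. Where a result moved, the cause was not tested beyond the change each alternative makes. Low counts limit the 14 channel genes under 50 reads, of which 8 are sensory. The parts of depth, level and partial counting in these low counts were not tested.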
